A study of Mus musculus with 57 samples.

Results

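The Egr genes Egr1, Egr2, Egr3 and Egr4 encode the early growth response transcription factors, and their transcripts were followed in mouse visual cortex over the day, with and without light. They were chosen by gene symbol, as 4 of the 24394 named genes measured, and the rule uses no measured value. The choice of these genes and of the gene lists was made with earlier results of these data known. Shares of all genes called are therefore given beside their calls as description. RNA was profiled by MARS-Seq, a method that counts short tags next to the 3′ end of each polyadenylated RNA, in 57 libraries. All mice were wild type and were kept on a 12 h light and 12 h dark schedule. Time is Zeitgeber time (ZT), in hours after the usual lights-on. The light arm, with 27 libraries, was collected on a day with the usual light, at ZT1, at ZT3, at ZT7.5 and at ZT11.5 in the lit hours and at ZT13, at ZT15 and at ZT18 after lights-off. The dark arm, with 30 libraries, was collected at the same times and at ZT0 on a day when the lights stayed off. Dark ZT0 thus served as the baseline of both arms. Groups held 4 libraries, except for Dark ZT1, Dark ZT13 and Light ZT18 with 3. The labels used here name no age, sex or strain and do not say how many animals went into a library. P-values therefore measure the spread between the deposited replicates.

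Egr proteins are zinc finger transcription factors that bind GC-rich sites, and their genes are immediate-early genes: synaptic activity and calcium entry raise their transcription within minutes through MAP kinases acting on serum response factor and CREB, without new protein synthesis. In visual cortex they are widely used as markers of neurons that light has recently activated. Egr1 (Zif268) is abundant in cortical excitatory neurons and is tied to lasting synaptic plasticity, Egr2 (Krox20) is also known for hindbrain and Schwann cell development, Egr3 acts downstream of neuronal activity on synaptic genes, and Egr4 (NGFI-C) is induced by seizure and sensory stimuli. Nab1 and Nab2 are corepressors that bind Egr1, Egr2 and Egr3 and damp their activity.

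In the GRCm38 annotation, all 4 are protein-coding genes on different chromosomes. Egr2 lies at chr10:67535475-67542188 on the plus strand, Egr3 at chr14:70077203-70082614 on the plus strand and Egr4 at chr6:85511121-85513589 on the minus strand. Promoter sequence from RefSeq (GRCm38.p6) was matched for 2 of the 4 members, Egr2 and Egr4. It is shown for these 2 because no promoter sequence was available for Egr1 and Egr3. Any link between these sequences and the light differences was not tested. The 250 bases before the start of each are printed 5′ to 3′ on the strand of the gene, with capitals marking a CArG box, the sequence that serum response factor binds, and short CRE sites (TGACG on either strand), to which CREB can bind.
Egr2: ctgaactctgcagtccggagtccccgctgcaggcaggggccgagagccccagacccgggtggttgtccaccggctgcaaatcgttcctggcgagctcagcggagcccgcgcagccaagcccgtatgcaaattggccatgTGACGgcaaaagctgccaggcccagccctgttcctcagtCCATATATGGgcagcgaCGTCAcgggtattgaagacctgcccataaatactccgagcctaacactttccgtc
Egr4: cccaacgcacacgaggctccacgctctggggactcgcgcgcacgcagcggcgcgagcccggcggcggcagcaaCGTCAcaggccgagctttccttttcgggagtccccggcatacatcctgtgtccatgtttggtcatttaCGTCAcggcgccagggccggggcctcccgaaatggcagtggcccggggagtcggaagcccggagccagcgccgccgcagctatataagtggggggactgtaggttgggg
The Egr2 window is chr10:67537619-67537868 on the plus strand, and the Egr4 window is chr6:85513590-85513839 on the minus strand. The table gave 5 start sites for Egr2, and the one shown, 67537869, is the start nearest to that of the principal GENCODE transcript. The window of the start at 67535499, near the 5′ end of the annotated gene, held no CArG box and no short CRE site, and that of the start at 67537566 held a CArG box and no short CRE site. In the window shown the CArG box, CCATATATGG, runs from -72 to -63 relative to the start, and the short CRE sites run from -111 to -107 and from -55 to -51. The Egr4 window held short CRE sites from -177 to -173 and from -109 to -105, and no CArG box matched. Only the strict form of the CArG box was searched, with A or T alone between CC and GG, and near matches were not counted. An Egr site (GCGNGGGCG, both strands) matched in neither window. Of 32851 such windows of 27025 genes, 1.47% held a CArG box, 17.8% a short CRE site and 4.7% an Egr site. These matches describe letters and not binding.

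The libraries held between 1.64 M and 4.31 M reads each (M stands for mega), and the median was 2.76 M. Values are the deposited normalised counts, in which each gene's count was scaled by the size factor of its library, and they are given as mean ± SD over the libraries of a group. Because tags come from 3′ ends and gene length plays no defined part, levels are compared for a gene between groups and not between genes. Differences are log2(value + 1) differences with their SE from limma, which was fitted to all 57 libraries and to the 10526 genes that averaged 10 or more. The Benjamini-Hochberg adjustment ran over these genes, and a gene is called below 0.05. Summed markers of cortical excitatory neurons, with 9 of 9 genes measured and none at 0, ran from 9079 to 14616 between libraries. Markers of choroid plexus, with 7 of 7 measured, varied widely between libraries of one group. In bulk tissue, fewer cells of a type and less RNA per cell cannot be told apart.

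Over the first hour of light, all 4 Egr transcripts rose to the highest level of any group. Egr1 stood at 2367, 2295, 2437 and 2522 in the 4 Light ZT1 libraries and at 734, 726 and 873 in the 3 Dark ZT1 libraries. Egr2 stood at 217, 156, 180 and 188 in light and at 15.1, 12.9 and 14.6 in dark. The lit libraries of both genes lay far above every dark library, and the Egr2 counts of the dark arm were low throughout. Egr3 was 328, 407, 404 and 353 in light and 233, 222 and 244 in dark. Egr4 was 720, 700, 773 and 923 in light and 183, 180 and 208 in dark. The lit and dark ranges of these genes were also apart, with the narrowest gap for Egr3.

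At ZT1, 4 of 4 Egr genes were called and higher in light, where 0.257% of all genes tested were called. The light minus dark difference was 3.61 ± 0.58 for Egr2, which is 12.2-fold on this scale (adjusted p 9.5e-05, limma). It was 2.02 ± 0.18 for Egr4 (4.06-fold, adjusted p 2e-11), 1.63 ± 0.18 for Egr1 (3.1-fold, adjusted p 6e-09) and 0.67 ± 0.13 for Egr3 (1.59-fold, adjusted p 0.0035). Each gene had all lit libraries above all dark ones, as did 3.09% of genes tested. The Egr3 call was lost without Dark ZT1 replicate 2, at 0.64 (limma adjusted p 0.063).

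The rise was also called against the baseline before dawn. Dark ZT0 levels were 702 ± 39.9 for Egr1, 10.4 ± 5.32 for Egr2, 187 ± 17.3 for Egr3 and 170 ± 17.7 for Egr4 (SD, n = 4). From there to Light ZT1, 4 of 4 members were called, as were 0.304% of all genes, with differences of 1.78 ± 0.17, 4.12 ± 0.54, 0.99 ± 0.12 and 2.18 ± 0.17 (limma adjusted p 3.2e-11, 6.3e-07, 2e-07 and 4.9e-14). In the dark arm the same hour gave no call among the members, with 0.057% of all genes called. Egr3 came nearest, at 233 ± 11.1 against 187 ± 17.3, with ranges apart, as in 3.86% of genes, and a difference of 0.32 ± 0.13 (limma adjusted p 0.45).

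**Figure D1:**
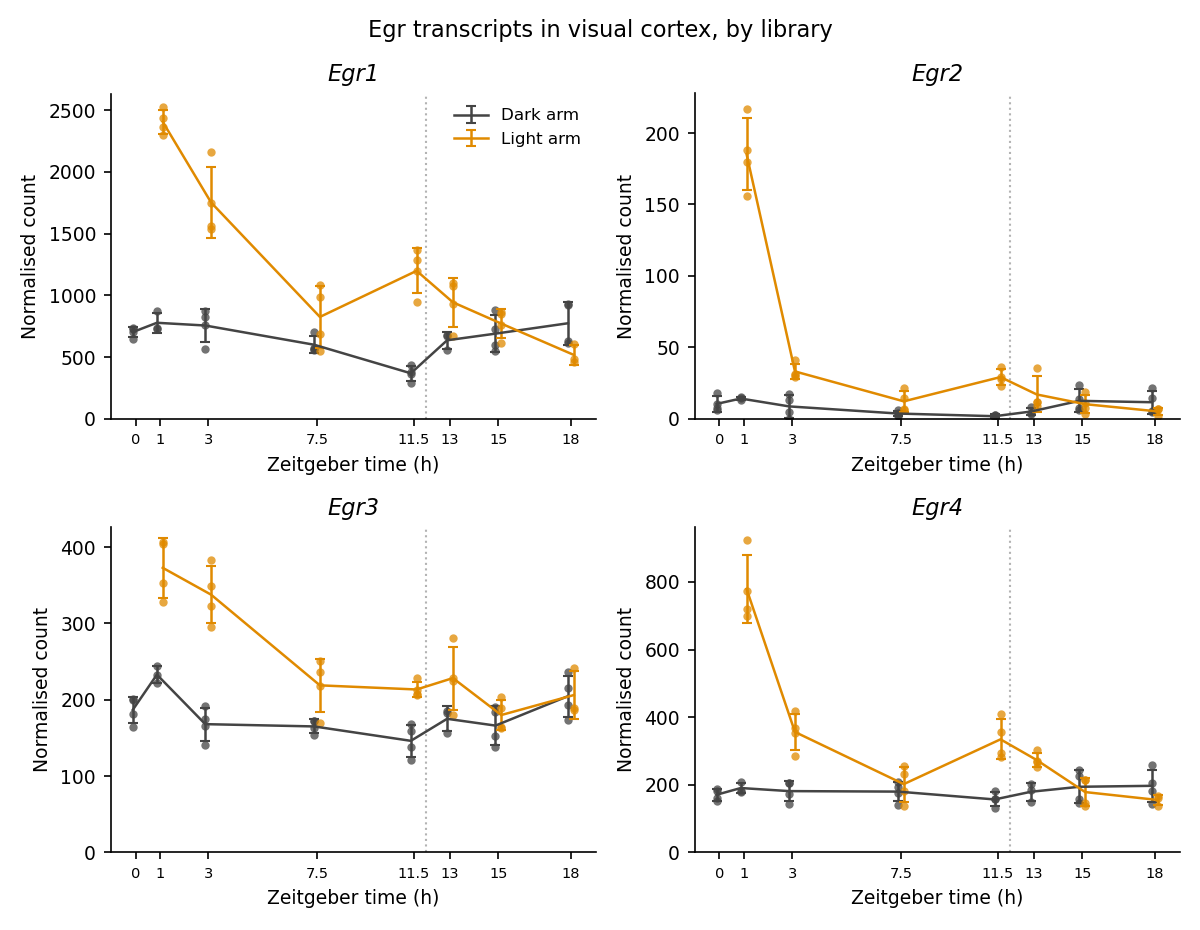
Normalised counts of Egr1, Egr2, Egr3 and Egr4 (y, linear axis from 0) against Zeitgeber time in hours (x), with 1 point per library and lines through group means with SD bars, in grey for the dark arm and orange for the light arm. The dotted line marks the usual lights-off. Each gene is highest at Light ZT1, where Egr1 reaches 2405 ± 97.2 and Egr4 779 ± 101, and at Light ZT11.5 every library of each gene lies above the dark libraries of that time.

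Between ZT1 and ZT3 of light, Egr2 and Egr4 fell. Egr2 stood at 29.3, 41.0, 30.7 and 31.7 at Light ZT3, below every Light ZT1 library. Egr4 stood at 367, 354, 418 and 286, again with no overlap with Light ZT1, as in 1.58% of genes. They were 2 of the 4 members called as lower, where 0.152% of all genes were called, by -2.45 ± 0.54 for Egr2 (adjusted p 0.023, limma) and -1.13 ± 0.17 for Egr4 (adjusted p 4.9e-05, limma). The Egr2 call was lost without any single library of the comparison other than Light ZT1 replicate 2, that is Light ZT1 replicates 1, 3 and 4 and all 4 of Light ZT3, with a difference between -2.55 and -2.37 and an adjusted p up to 0.11. It was also lost when genes of low values were kept in (adjusted p 0.086, limma).

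Egr1 and Egr3 did not pass over this step. Egr1 was 1533, 2162, 1751 and 1560 at Light ZT3, all below Light ZT1, with a difference of -0.47 ± 0.17 (adjusted p 0.47, limma). Egr3 was 296, 383, 322 and 350, which overlapped Light ZT1, with a difference of -0.14 ± 0.12 (adjusted p 0.87, limma). Whether the fall differed between the members was not tested within the light arm.

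Against dark at ZT3, all 4 were still higher in light, with 4 of 4 called where 0.124% of all genes were called. Dark ZT3 libraries gave 825, 874, 564 and 759 for Egr1 and 17.2, 12.9, 0 and 4.71 for Egr2. They gave 175, 166, 140 and 192 for Egr3 and 204, 173, 142 and 205 for Egr4. No dark library reached the lowest lit one in any member, a separation seen in 2.56% of genes tested. Differences were 1.22 ± 0.17 for Egr1 (adjusted p 6.1e-06), 1.01 ± 0.12 for Egr3 (adjusted p 7e-07), 0.97 ± 0.17 for Egr4 (adjusted p 0.0016) and 2.46 ± 0.54 for Egr2 (adjusted p 0.036), all from limma. The Egr2 value rested in part on Dark ZT3 replicate 3, which had no Egr2 read, and without it the difference was 1.58 (limma adjusted p 0.46). Its call was also lost without Dark ZT3 replicate 4 or any of the 4 Light ZT3 libraries, with a difference between 2.35 and 2.51 and an adjusted p up to 0.12. It was lost as well in 5 of 10 alternative fits: the groups compared alone (adjusted p 0.425), terms for replicates 3 and 4 against 1 and 2 (2.18, adjusted p 0.18), no filter on low values (adjusted p 0.095), DESeq2 (1.94, adjusted p 0.066) and terms for thalamus genes, given next. Replicates 1 and 2 taken alone gave an Egr2 difference of 1.17, and replicates 3 and 4 alone gave 3.75, each with 2 libraries per arm and no test.

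Levels of markers of neighbouring tissue varied between libraries at this time, with ranges that overlapped between the arms. The summed choroid plexus markers, with 7 of 7 measured and none at 0, ran from 388 to 1191 in Light ZT3 and from 551 to 5813 in Dark ZT3. Their part in the Egr differences was not tested. The 6 thalamus markers summed to 86.0 to 136 in light and to 86.8 to 316 in dark, with medians of 113 and 116. With the thalamus genes Prkcd and Tnnt1 as terms in the fit, Egr2 was at 2.41 (limma adjusted p 0.072), and the other members kept their call.

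From ZT3 to the middle of the lit day 3 members fell, and no member passed against dark there. Egr1 at Light ZT7.5 was 684, 548, 1083 and 985, of which replicates 1 and 2 lay near the Dark ZT7.5 values of 575, 564, 559 and 701. From Light ZT3 to Light ZT7.5, Egr1 fell by 1.12 ± 0.17 (adjusted p 5e-05), Egr4 by 0.84 ± 0.17 (adjusted p 0.0059) and Egr3 by 0.63 ± 0.12 (adjusted p 0.0043, all limma), where 0.513% of all genes were called. Egr2 went from 33.2 ± 5.32 to 12.2 ± 7.38, with a difference of -1.52 ± 0.54 that did not pass (adjusted p 0.24, limma). The Egr3 call was lost without Light ZT3 replicate 2 (-0.57, adjusted p 0.052) or Light ZT7.5 replicate 1 (-0.52, adjusted p 0.064). The Egr4 call was lost without Light ZT7.5 replicate 2 (-0.67, limma adjusted p 0.083), and in a fit to these groups alone Egr3 and Egr4 did not pass (adjusted p 0.089 and 0.074).

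At ZT7.5 itself no Egr gene was called between light and dark, and 0% of all genes were. The differences were 0.41 ± 0.17 for Egr1, 1.40 ± 0.54 for Egr2, 0.39 ± 0.12 for Egr3 and 0.14 ± 0.17 for Egr4, with overlapping ranges for every member. Unadjusted limma p-values were 0.016, 0.012, 0.0026 and 0.4, so that 3 of 4 members lay under 0.05 before adjustment, as did 613 of all genes tested. edgeR and DESeq2 called 0 of 4. Within replicates 1 and 2 the Egr1 and Egr2 differences were 0.10 and 0.32, and within replicates 3 and 4 they were 0.72 and 2.49, with 2 libraries per arm each and no test.

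**Figure D2:**
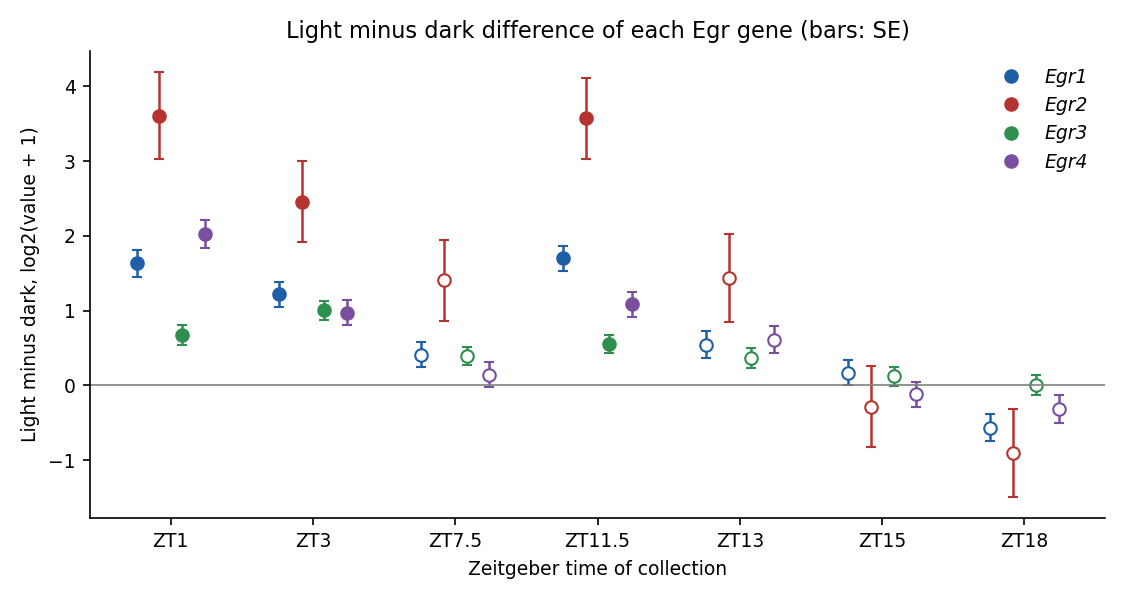
Light minus dark difference on the log2(value + 1) scale (y) at each time of collection (x) for the 4 Egr genes, with SE bars from limma and filled points for adjusted p under 0.05. All 4 members are filled at ZT1, ZT3 and ZT11.5 and open at ZT7.5, ZT13, ZT15 and ZT18. On this scale Egr1 and Egr2 reach at ZT11.5 (1.70 and 3.57) about their ZT1 difference. Their lit means were lower there than at Light ZT1, at 1198 against 2405 for Egr1 and 29.2 against 185 for Egr2. With a pseudocount of 5 the Egr2 difference at ZT11.5 was 2.33.

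At ZT11.5, shortly before the usual lights-off, the members were higher in light than in dark. Egr1 was 1286, 944, 1365 and 1199 at Light ZT11.5 and 383, 359, 294 and 439 at Dark ZT11.5. Egr2 was 27.7, 23.2, 36.4 and 29.5 in light and 0, 2.97, 2.39 and 1.98 in dark, where the 4 libraries held 7 Egr2 reads in all. Egr4 was 293, 281, 409 and 355 in light and 157, 158, 130 and 181 in dark. Every lit library lay above every dark one for these 3 genes, and the same held for Egr3, at 228, 212, 206 and 208 in light against 159, 137, 121 and 168 in dark.

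At ZT11.5, 4 of 4 members were called as higher in light, where 0.152% of all genes were called, and 3.42% of genes had ranges apart in that direction. Differences were 3.57 ± 0.54 for Egr2 (11.9-fold, adjusted p 6.5e-05), 1.70 ± 0.17 for Egr1 (3.25-fold, adjusted p 3.2e-10), 1.08 ± 0.17 for Egr4 (2.12-fold, adjusted p 8.5e-05) and 0.55 ± 0.12 for Egr3 (1.47-fold, adjusted p 0.033), all from limma. The Egr3 call was lost without any one of Dark ZT11.5 replicates 2 and 3 and the 4 Light ZT11.5 libraries, with a difference between 0.47 and 0.57 and an adjusted p up to 0.27. It was also lost with terms for replicates 3 and 4 against 1 and 2 (0.56, limma adjusted p 0.067) and with only the groups compared (limma adjusted p 0.054). The fold of Egr2 depends on the pseudocount, since its dark counts were near 0, and with a pseudocount of 5 the difference was 2.33.

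The 6 thalamus markers, none at 0, summed to 108 to 151 in Light ZT11.5 and to 107 to 367 in Dark ZT11.5. With Prkcd and Tnnt1 as terms, Egr3 was at 0.53 (limma adjusted p 0.15), and the other 3 members kept their call. The summed choroid plexus markers ran from 259 to 9431 in light and from 453 to 21667 in dark, and their part in the Egr differences was not tested.

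Between ZT7.5 and ZT11.5 the means of Egr1, Egr2 and Egr4 went up in light and down in dark. In the light arm 0 of 4 members were called over these hours, and 0% of all genes were, with 3 of 4 members and 912 of all genes under an unadjusted limma p of 0.05. edgeR also called 0 of 4. Mean Egr1 was 825 ± 251 and then 1198 ± 183, a difference of 0.58 ± 0.17 (limma adjusted p 0.22), and mean Egr4 was 202 ± 52.0 and then 334 ± 59.1, a difference of 0.75 ± 0.17 (limma adjusted p 0.12). Mean Egr2 was 12.2 ± 7.38 and then 29.2 ± 5.48, a difference of 1.34 ± 0.54 (limma adjusted p 0.5). Egr2 and Egr4 had ranges apart, as did 2.25% of genes in this direction, Egr1 did not, and Egr3 stood at 219 ± 35.1 and 213 ± 10.1. In the dark arm Egr1 fell by 0.71 ± 0.17 (limma adjusted p 0.036) where 0.285% of all genes were called, with every Dark ZT11.5 library below every Dark ZT7.5 library, as in 4.05% of genes. This call was lost without any single library of the comparison other than Dark ZT11.5 replicate 4, at -0.74 to -0.61, with an adjusted p up to 0.32.

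The light minus dark difference of Egr1 was larger at ZT11.5 than at ZT7.5 by 1.29 ± 0.23 (limma adjusted p 0.012). Egr1 was the single gene of 10526 to pass this test, which is 0.0095%. The call was lost without Dark ZT7.5 replicate 4, Dark ZT11.5 replicate 3, Light ZT7.5 replicates 1 and 2, or Light ZT11.5 replicates 1 and 3, with a value between 1.11 and 1.25 and an adjusted p up to 0.13. The same change was 0.94 ± 0.24 for Egr4 (adjusted p 0.42), 2.17 ± 0.76 for Egr2 (adjusted p 0.55) and 0.16 ± 0.18 for Egr3 (adjusted p 0.96), none of which passed in limma. From ZT1 to ZT3 the difference changed by -1.05 ± 0.25 for Egr4 (limma adjusted p 0.17) and by -1.15 ± 0.80 for Egr2 (limma adjusted p 1), neither of which passed, with 0.019% of all genes called. No member passed for the change from ZT3 to ZT7.5 (limma adjusted p 0.9998 each). It was -0.81 ± 0.23 for Egr1, -1.05 ± 0.76 for Egr2, -0.61 ± 0.18 for Egr3 and -0.83 ± 0.24 for Egr4. None passed from ZT11.5 to ZT13 either (limma adjusted p from 0.091 to 0.99). That change was -1.15 ± 0.24 for Egr1, -2.13 ± 0.80 for Egr2, -0.19 ± 0.18 for Egr3 and -0.47 ± 0.25 for Egr4.

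Set against the baseline at ZT0, the late-day level of the lit mice was raised for 2 members, where 0.133% of all genes were called. Egr1 at Light ZT11.5 was above Dark ZT0 by 0.76 ± 0.17 (adjusted p 0.033, limma) and Egr4 by 0.96 ± 0.17 (adjusted p 0.0016, limma). Without any one of the 4 Dark ZT0 libraries or Light ZT11.5 replicates 1, 3 and 4, the Egr1 call was lost, with a difference between 0.69 and 0.78 and an adjusted p up to 0.15. Egr2 differed by 1.49 ± 0.54 (adjusted p 0.39, limma) and Egr3 by 0.20 ± 0.12 (adjusted p 0.74, limma).

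After lights-off no member passed between the arms. At Light ZT13, Egr1 was 944 ± 199 against 636 ± 67.5 in dark, Egr2 was 17.0 ± 12.6 against 5.11 ± 2.60, Egr3 was 228 ± 41.3 against 175 ± 16.3 and Egr4 was 273 ± 21.1 against 179 ± 26.7. The differences at ZT13 were 0.55 ± 0.18, 1.43 ± 0.58, 0.37 ± 0.13 and 0.61 ± 0.18 (limma adjusted p 0.35, 0.47, 0.41 and 0.3), where 0.038% of all genes were called, and 4 of 4 members and 871 of all genes lay under 0.05 before adjustment. edgeR and DESeq2 called 0 of 4. Egr2 and Egr4 still had every lit library above every dark one, as did 3.51% of genes. Between Light ZT11.5 and Light ZT13 no member was called either, with 0.257% of all genes called and overlapping ranges for all 4.

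By ZT15 the differences lay between -0.28 ± 0.54 for Egr2 and 0.17 ± 0.17 for Egr1, with overlapping ranges and 0% of all genes called, and 0 of 4 members and 464 of all genes lay under 0.05 in limma before adjustment. At ZT18, Egr1 was 460, 486 and 607 in the light arm and 921, 614, 633 and 926 in the dark arm, so that all lit libraries lay lower, as in 4.01% of genes tested. The difference of -0.56 ± 0.18 did not pass (limma adjusted p 0.3), and 0% of all genes did. Egr2 stood at -0.90 ± 0.58, Egr4 at -0.32 ± 0.18 and Egr3 at 0.01 ± 0.13, with overlapping ranges. At ZT18, 1 of 4 members and 964 of all genes tested had an unadjusted limma p under 0.05.

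Without light, Egr1, Egr2 and Egr3 changed over the day and Egr4 was not called. Egr1 went from 778 ± 82.3 at Dark ZT1 (n = 3) to 600 ± 67.9 at ZT7.5 and 369 ± 60.2 at ZT11.5, and stood at 774 ± 173 at ZT18 (n = 4). Egr2 went from 14.2 ± 1.16 to 3.71 ± 1.87, 1.83 ± 1.29 and 11.6 ± 8.12 at the same times. Egr3 went from 233 ± 11.1 to 165 ± 9.09, 146 ± 21.2 and 205 ± 26.7. Dark ZT11.5 was thus the lowest of all 15 groups for these 3 genes. Egr4 had its dark means between 156 ± 20.7 at ZT11.5 and 197 ± 48.2 at ZT18.

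A moderated F test over the 8 dark times called Egr1 (adjusted p 0.00012), Egr2 (adjusted p 0.012) and Egr3 (adjusted p 0.0093) and did not call Egr4 (adjusted p 0.79, all limma), where 6.52% of all genes were called. The Egr2 call was lost without Dark ZT11.5 replicate 1 (adjusted p 0.052). From Dark ZT0 to Dark ZT11.5, Egr1 fell by 0.94 ± 0.17 (limma adjusted p 0.00046) and Egr2 by 2.08 ± 0.54 (limma adjusted p 0.037), where 1.25% of all genes were called. The Egr2 call was lost without any one of Dark ZT0 replicates 1, 2 and 4 and Dark ZT11.5 replicates 1, 3 and 4, with a difference between -2.22 and -1.64 and an adjusted p up to 0.15.

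From Dark ZT11.5 to Dark ZT18, 3 of 4 members rose, where 5.88% of all genes were called. Egr1 rose by 1.05 ± 0.17 (adjusted p 7e-05), Egr2 by 2.08 ± 0.54 (adjusted p 0.015) and Egr3 by 0.49 ± 0.12 (adjusted p 0.014), and Egr4 differed by 0.31 ± 0.17 (adjusted p 0.28, all limma). The Egr2 call was lost without Dark ZT11.5 replicate 1 (1.64, adjusted p 0.072), Dark ZT18 replicate 1 (1.90, adjusted p 0.057) or Dark ZT18 replicate 4 (1.72, adjusted p 0.072). The Egr3 call was lost without Dark ZT11.5 replicate 3 (0.40, adjusted p 0.093) or Dark ZT18 replicate 1 (0.41, adjusted p 0.066). Without the 7 libraries under 2 M reads neither passed, with 1.26 for Egr2 (limma adjusted p 0.35) and 0.34 for Egr3 (limma adjusted p 0.27). Over the nearer step from Dark ZT11.5 to Dark ZT13, Egr1 differed by 0.79 ± 0.18 with ranges apart, as in 4.32% of genes, which did not pass (limma adjusted p 0.081, with 0.0095% of all genes called).

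Over the 7 light times, 4 of 4 members changed (adjusted p 5.2e-14 for Egr1, 6.2e-08 for Egr2, 1.3e-08 for Egr3 and 2e-14 for Egr4, limma F test), where 3.81% of all genes were called. The light minus dark difference also varied over the 7 shared times for all 4 members (adjusted p 4.1e-09, 0.00055, 0.013 and 1.3e-08), where 0.181% of all genes did. That call was lost for Egr3 without Dark ZT3 replicate 3 (adjusted p 0.052) and without the 7 libraries under 2 M reads (adjusted p 0.21).

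Ordered by level over the 15 groups, Light ZT1 came first for every member, with a range apart from the next group, Light ZT3, for Egr1, Egr2 and Egr4 but not for Egr3. Light ZT3 was next for all 4. Next came Light ZT11.5 for Egr1, Egr2 and Egr4, and Dark ZT1 for Egr3. Further down, neighbours in the order overlapped for Egr2, Egr3 and Egr4. For Egr1 the neighbours overlapped from Light ZT11.5 down to Light ZT18, and Dark ZT11.5 stood alone at the bottom, with a highest library of 439 against a lowest of 460 in Light ZT18. Egr4 had its lowest mean at Light ZT18, at 155 ± 15.3, with a range that overlapped Dark ZT11.5 at 156 ± 20.7.

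Ratios between members were also taken within the same library. They were compared over the lit hours, ZT1 to ZT11.5, as the mean over 4 times of the light minus dark log2 ratio, with a permutation test of the arm labels within each time (100000 resamples, two-sided, 6 pairs, smallest possible p 1e-05). Of the 6 pairs, 5 passed. Egr2 gained on every other member, by 2.10 on Egr3, 1.70 on Egr4 and 1.52 on Egr1 (its log2 ratio of Egr1 to Egr2 was -1.52), each with an adjusted p of 2e-05. With a pseudocount of 5 the log2 ratio of Egr2 to Egr3 rose by 1.41 and that of Egr2 to Egr4 by 1.02, and that of Egr1 to Egr2 changed by -0.82 (permutation adjusted p up to 0.0001). Egr1 gained 0.58 on Egr3 (adjusted p 0.00028), and the ratio of Egr3 to Egr4 fell by 0.40 (adjusted p 0.023). The ratio of Egr1 to Egr4 was 0.18 higher in light, which did not pass (adjusted p 0.051), and it passed with a pseudocount of 5 (0.19, permutation adjusted p 0.04).

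These ratios changed with the hour. The ratio of Egr1 to Egr4 was lower in light at ZT1 by -0.39 and higher at ZT11.5 by 0.62. The dark arm moved too, so such a difference also follows the dark values. Against Dark ZT0, Egr1 was at -0.94 in Dark ZT11.5 and at 0.76 in Light ZT11.5, and Egr4 at -0.13 and 0.96. The ratio of Egr3 to Egr4 was -1.35 at ZT1, 0.03 at ZT3, 0.25 at ZT7.5 and -0.53 at ZT11.5. The ratio of Egr1 to Egr3 was 0.96 at ZT1 and 1.15 at ZT11.5, and 0.21 and 0.02 at the times between. The change of the ratios with the hour was not tested. Within replicates 1 and 2, 3 of 6 pairs passed, since Egr1 to Egr3 (0.47, permutation adjusted p 0.054) and Egr3 to Egr4 (-0.28, permutation adjusted p 0.23) did not. Within replicates 3 and 4 the latter was at -0.51 (permutation adjusted p 0.062). The ratio of Egr1 to Egr4 passed without any one of Dark ZT1 replicate 3, Dark ZT3 replicate 2, Dark ZT7.5 replicate 2, Light ZT1 replicate 4, Light ZT3 replicates 1 and 3 or Light ZT7.5 replicate 1, with values between 0.19 and 0.21 and a permutation adjusted p from 0.029 to 0.047.

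**Figure D3:**
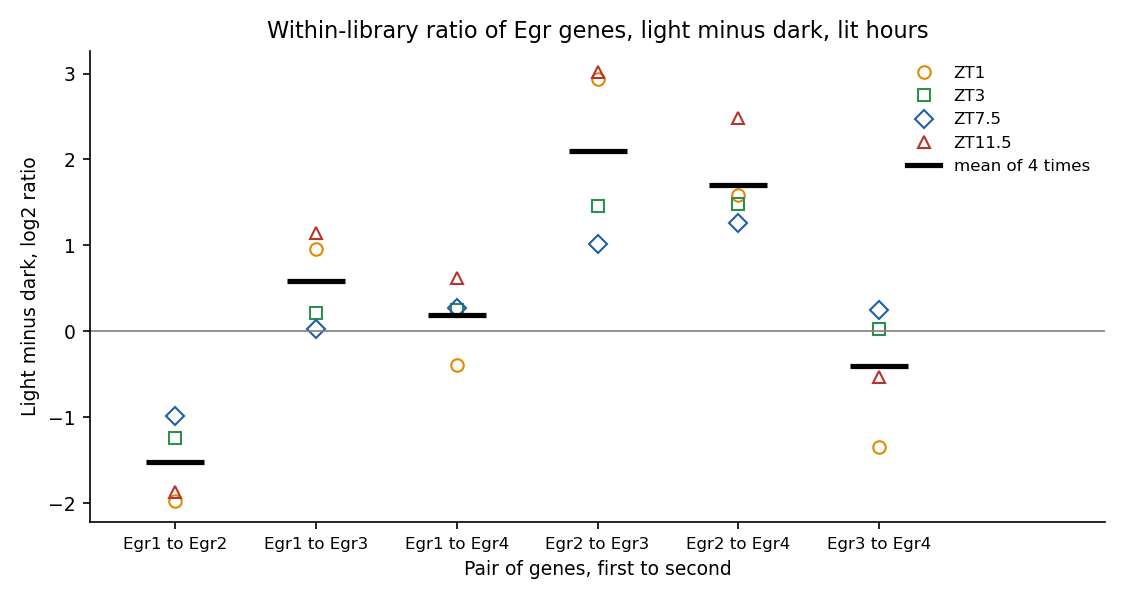
Light minus dark difference of the within-library log2 ratio (y) for the 6 pairs of Egr genes (x), with 1 symbol per lit time and a black bar for the mean over 4 times. Egr2 gains on Egr3 and Egr4 at each time, while the ratio of Egr3 to Egr4 is -1.35 at ZT1 and 0.25 at ZT7.5.

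Libraries of one group also differed among themselves, and the members did so together. The deviation of each library from its group mean on the log2(value + 1) scale was correlated between members over 57 libraries, by permutation within groups (100000 resamples, two-sided, adjusted over 6 pairs). All 6 pairs passed. The same correlation was not computed for other genes, so whether this is particular to the Egr genes was not tested. The closest pair was Egr1 and Egr4, with Pearson's r = 0.71 (permutation adjusted p 6e-05) and Spearman's rho = 0.70 (permutation adjusted p 6e-05), and r = 0.71 without the 2 libraries farthest in Egr1. Egr1 and Egr2 followed with r = 0.62 and rho = 0.62 (permutation adjusted p 0.00015 and 0.00018), and Egr1 and Egr3 with r = 0.60 and rho = 0.63 (permutation adjusted p 0.0003 and 0.00012). Without the 2 farthest libraries these were r = 0.63 and 0.69.

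The pairs without Egr1 were weaker. They were r = 0.44 and rho = 0.44 for Egr2 and Egr4 (permutation adjusted p 0.0065 and 0.0083), r = 0.40 and rho = 0.37 for Egr2 and Egr3 (permutation adjusted p 0.02 and 0.026), and r = 0.35 and rho = 0.35 for Egr3 and Egr4 (permutation adjusted p 0.029 and 0.026). Without the 2 farthest libraries they were r = 0.39, 0.34 and 0.36, with permutation adjusted p 0.025, 0.05 and 0.025. In the dark arm alone, Egr3 and Egr4 had r = 0.76 and rho = 0.73 over 30 libraries (permutation adjusted p 0.00048 and 0.0014), and in the light arm r = -0.05 and rho = -0.06 over 27 (permutation adjusted p 0.85 and 0.78). The difference between the arms was not tested. Egr1 and Egr4 had r = 0.74 in dark and 0.70 in light.

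With the means of replicates 1 and 2 and of replicates 3 and 4 removed within each group, over 54 libraries, Egr1 and Egr4 passed (r = 0.64, permutation adjusted p 0.0009) and the other 5 pairs did not, with r from 0.28 to 0.58. The deviations had r between -0.36 and -0.19 with the log2 read total of the library, whose part was not tested.

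**Figure D4:**
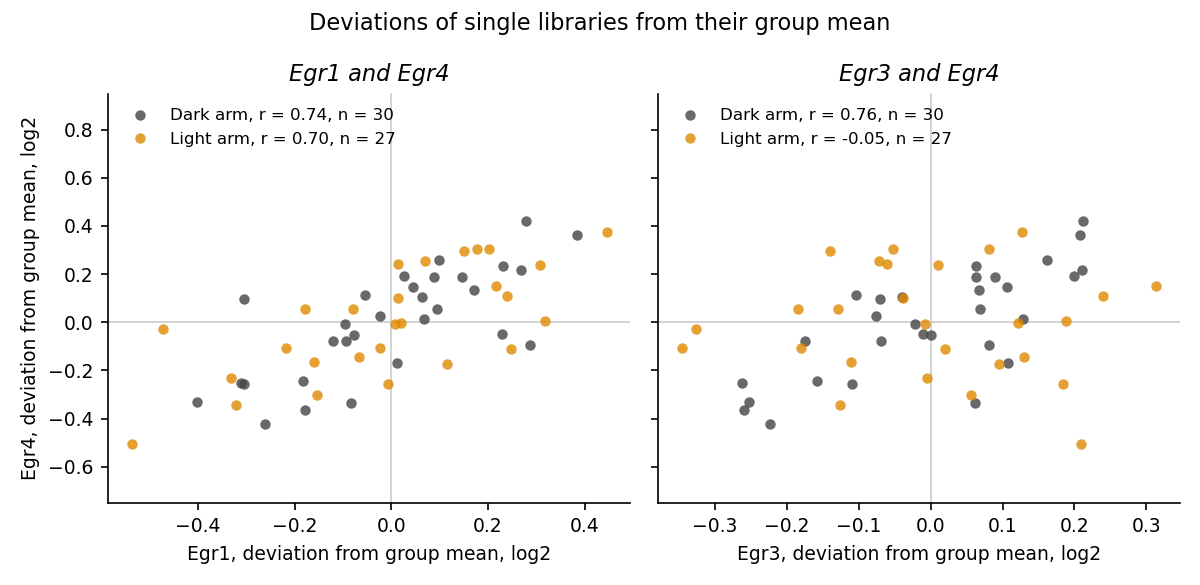
Deviation of each library from its group mean, in log2(value + 1) units, of Egr4 (y) against Egr1 (left) and Egr3 (right), with 1 point per library, grey for dark and orange for light. Egr4 follows Egr1 in both arms (r = 0.74 and 0.70), and with Egr3 it has r = 0.76 in the dark arm and r = -0.05 in the light arm.

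The genes whose course over the 15 group means was most like that of each member were ranked by Pearson's r on the log2(value + 1) scale, as a description, since group means share libraries and baseline. For Egr1 these were Fosb (0.951), Npas4 (0.949), Fos (0.944), Dnajb5 (0.924) and Midn (0.917). Fos and Fosb are subunits of the AP-1 transcription factor, and Npas4 is a neuronal transcription factor induced by calcium. For Egr2 they were Fos (0.966), Nr4a1 (0.945), Sertad1 (0.924), Junb (0.908) and Midn (0.903). For Egr4 they were Nr4a1 (0.948), Fos (0.921), Trib1 (0.919), Junb (0.911) and Sertad1 (0.893), of which Nr4a1 encodes an orphan nuclear receptor. Egr3 stood nearest to Fosb (0.925), Dusp14 (0.902), Cdkn1a (0.892), Fosl2 (0.871) and Gnb5 (0.854). The members had r from 0.851, for Egr3 and Egr4, to 0.955, for Egr1 and Egr2, among each other. Spearman's rho over the same means was lower for each of these pairs. For the genes outside the family it ran from 0.607, for Gnb5 and Egr3, to 0.889, for Npas4 and Egr1. For Egr3 and Egr4 it was 0.707. Gnb5 hardly moved, with an SD over the group means of 0.0894, against 0.372 for Egr3.

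Regulators that act on the Egr genes were followed at the level of their own RNA. Of 18 such genes, covering serum response factor, ternary complex factors, CREB family members and the MAP kinase cascade, 15 were tested, and limma called 0 of them at any of the 7 times, with from 0 to 4 of 15 under 0.05 before adjustment. Over all genes tested, 0% to 0.257% were called at these times, so that the count of calls is near the background. Before adjustment, 464 to 964 of 10526 lay under 0.05. At ZT1 the unadjusted count, 4 of 15, was a larger share than the 488 of 10526 among all genes. Those 4 went both ways in light, with Srf and Crem higher and Elk1 and Mapk3 lower. The median light minus dark difference of the 15 lay between -0.06 at ZT13 and 0.04 at ZT3, and that of all genes was within 0.01 of 0 at each time. At ZT1, Crem, which encodes a CREB family factor, was at 0.70 ± 0.25 (limma adjusted p 0.61) and Srf, which encodes serum response factor, at 0.29 ± 0.14 (limma adjusted p 1). Over the 8 dark times, 3 of the 15 changed (Srf, Elk1 and Mapk3, where 6.52% of all genes did), and over the 7 light times 2 did (Mkl2 and Crem, where 3.81% of all genes did). These names were picked after their values were seen.

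Corepressors of the Egr proteins were followed in the same way. Of 6 genes for Nab proteins and their partners, 4 were tested, and limma called 0 of them at any time, with from 0 to 2 of 4 under 0.05 before adjustment, beside the same 0% to 0.257% called and 464 to 964 under 0.05 over all genes. Nab2 was 216 ± 45.1 at Light ZT1 (n = 4) and 157 ± 25.6 at Dark ZT1 (n = 3), a difference of 0.45 ± 0.18 (limma adjusted p 0.86), and 182 ± 26.2 against 142 ± 13.4 at ZT11.5 (n = 4 each), a difference of 0.35 ± 0.16 (limma adjusted p 0.59). Nab1 was listed at 0 in every library of 12 of the 15 groups, and its highest group mean was 0.811.

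Among genes that have been reported as Egr targets, Arc and Gadd45b were higher in light. Of 27, among them Nab2 and Arc, 20 were tested. At ZT1, 2 were called as higher in light (Arc and Gadd45b), where 0.257% of all genes were called in either direction. At ZT11.5 Arc was called as higher, where 0.152% of all genes were called in either direction and 0.133% as higher. None of the 20 was called in either direction at the other 5 times. Arc, which encodes a synaptic protein and is itself an immediate-early gene, was 1766 ± 461 in Light ZT1 and 317 ± 34.4 in Dark ZT1, a difference of 2.45 ± 0.34 (limma adjusted p 4.1e-06). At ZT11.5 it was 760 ± 499 against 227 ± 44.9, a difference of 1.46 ± 0.32 (limma adjusted p 0.03). The lit libraries ran from 226 to 1287 and the dark ones from 173 to 281, so that the ranges overlapped. Gadd45b, which encodes a stress sensor linked to DNA demethylation, was 213 ± 39.2 in Light ZT1 and 100 ± 15.8 in Dark ZT1, a difference of 1.07 ± 0.16 (limma adjusted p 1e-05). The median of the 20 genes was 0.14 at ZT1, 0.11 at ZT3, 0.11 at ZT7.5 and -0.0014 at ZT11.5.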

How the data were processed

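Per the submitters' processing notes, cutadapt, STAR 2.5.2b with the mm10 build, and DESeq2 for normalisation were used on the reads. The deposited signal values are gene counts that the authors divided by a size factor of each library, and no batch is named. Annotation, strand setting and molecular identifiers are not described by the labels, and reads of overlapping or antisense genes cannot be told apart. Of 24421 rows, 27 with date names were left out (0.294% to 0.363% of reads). Dividing by the value of 1 read in each library gave whole reads for 100% of values (within 0.01), which were used for edgeR 4.0.16 and DESeq2 1.42.0 as alternatives. All 81 replicate pairs differed by more than counting noise.

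The main test was limma 3.58.1 in R 4.3.3 with its intensity trend, on log2(value + 1), for 10526 genes with a mean of at least 10, with 57 libraries in 15 labelled groups sharing 1 spread per gene. It was tested on simulated data. Neighbouring and interaction contrasts, moderated F tests and permutation tests followed. Alternatives tried were a pseudocount of 5, no filter, TMM rescaling, a block for the replicate number, only the groups compared, terms for replicates 3 and 4 against 1 and 2, the thalamus genes Prkcd and Tnnt1 as terms, leaving out libraries under 2 M reads, and leaving out each library. The members and lists were chosen with earlier results of these data known. Genes named were the members, the 5 most alike genes of each, Nab1, Nab2 and list genes called between light and dark. Srf, Crem, Elk1, Mapk3 and Mkl2 were named in addition, picked after their values were seen.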

Additional observations from a re-analysis of the deposited data

Results flagged for a closer look

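Among 48 sets of 4 libraries tested (1 Egr gene in 1 group), 2 held a library far from the others, with a gap over 0.829 of the range. Chance gives about 1 in 20. Egr1 in Dark ZT7.5 replicate 4 was 701.4, with the others between 559 and 575.4. Egr2 in Light ZT13 replicate 2 was 35.82, with the others between 8.91 and 11.9.

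The light minus dark difference changed between times in several tests. That of Egr1 was larger at ZT11.5 than at ZT7.5 by 1.286 (limma, adjusted p 0.012). Over the 7 shared times it varied for Egr1 (adjusted p 4.1e-09), Egr2 (adjusted p 0.00055), Egr3 (adjusted p 0.013) and Egr4 (adjusted p 1.3e-08), all by limma's moderated F test.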

How the results depend on the processing

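At ZT1, ZT3 and ZT11.5 the count of Egr genes called between light and dark stayed at 3 or 4 under every alternative and with any 1 library left out. Over 33 counts, 262 of 283 values under alternatives and 353 of 387 with a library left out lay within 1.5 times the main count. With no filter on low values, the count was 1 in place of 2 for Light ZT3 minus Light ZT1, for Dark ZT11.5 minus Dark ZT0 and for Light ZT11.5 minus Dark ZT0, and 0 in place of 1 for Dark ZT11.5 minus Dark ZT7.5 and for the change of the light minus dark difference from ZT7.5 to ZT11.5. A pseudocount of 5 and edgeR each gave 1 for Dark ZT11.5 minus Dark ZT0, and edgeR gave 0 for Dark ZT11.5 minus Dark ZT7.5 (Egr1, adjusted p 0.0504). With only the groups compared it was 1 in place of 3 for Light ZT7.5 minus Light ZT3, 1 in place of 0 for Dark ZT13 minus Dark ZT11.5, and 0 for the change from ZT7.5 to ZT11.5. For the change from ZT1 to ZT3 (Egr4), only the groups compared, edgeR and DESeq2 each gave 1 in place of 0. Without libraries under 2 M reads it was 1 in place of 3 for Dark ZT18 minus Dark ZT11.5 and 0 for the change from ZT7.5 to ZT11.5. Terms for replicates 3 and 4 gave 1 in place of 0 for Light ZT11.5 minus Light ZT7.5 (Egr4) and for Dark ZT13 minus Dark ZT11.5 (Egr1). The cause of these changes was not tested.

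Leaving out 1 library gave counts from 1 to 2 for Light ZT3 minus Light ZT1, Dark ZT11.5 minus Dark ZT0 and Light ZT11.5 minus Dark ZT0, from 1 to 3 for Dark ZT18 minus Dark ZT11.5, and from 0 to 1 for Dark ZT11.5 minus Dark ZT7.5 and the change from ZT7.5 to ZT11.5. Of the 6 ratios, 3 passed within replicates 1 and 2. Of the 6 pairs that varied together, 3 passed within the light arm, where Egr3 and Egr4 were at r = -0.0457, and 1 with the means of replicates 1 and 2 and of 3 and 4 removed.

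Differences near 0 turned sign. Without libraries under 2 M reads, Egr3 was at 0.04751 for Light ZT11.5 minus Light ZT7.5 and Egr4 at -0.0496 for Dark ZT13 minus Dark ZT11.5. With Prkcd and Tnnt1 as terms, Egr3 was at -0.02015 at ZT18. With a library left out, values ran from -0.6198 to 0.07611 for Egr2 and from -0.2393 to 0.00295 for Egr4 at ZT15, and for Egr3 from -0.1107 to 0.07973 at ZT18, from -0.1377 to 0.04751 for Light ZT11.5 minus Light ZT7.5 and from -0.02385 to 0.1893 for Light ZT13 minus Light ZT11.5.

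Replicate numbers paired the libraries in 1 of 24 comparisons (every r over 0.1), Light ZT18 minus Light ZT15. With the replicate block, the count of Egr genes called was 4 at ZT1, 4 at ZT3 and 4 at ZT11.5, and no count of Egr calls changed. DESeq2 left members without an adjusted p in 12 comparisons, for which no count is given. Egr2 in the dark arm rests on few reads, so its folds are imprecise.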
